A study of Mus musculus with 18 samples.

Results

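Cytokine receptors of B cells are described here by the genes Il4ra, Il21r, Il10ra, Il2rg, Ifngr1, Ifngr2, Ifnar1 and Ifnar2, taken as the probe sets whose only platform gene symbol was one of these 8 names. Of the 8 genes, 7 were measured, by 15 of the 34945 probe sets that carried 1 symbol, which is 7 of 18193 named genes. Il2rg is not analysed here, because no probe set carried it as its only symbol. The RNA came from CD23+ splenic B lymphocytes of C57BL/6J mice and was hybridised to Affymetrix Mouse Genome arrays. CD23 is the low-affinity IgE receptor of follicular B cells, so cells without it were outside the selection. All mice had received an injection of vehicle or of PF-303, an inhibitor of the kinase BTK, 2 h before an activation step with PBS as the control or with anti-IgD, an antibody that crosslinks the B-cell receptor, and cells were collected 2 h after that step.

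The 4 groups were PBS after vehicle (n = 4), anti-IgD after vehicle (n = 4), PBS after PF-303 (n = 5) and anti-IgD after PF-303 (n = 5). No genotype other than the strain is given, and the age of the mice is not given in the sources used here. Whether every sample was taken from its own animal is not stated, so a p-value reflects how far these samples differed, and part of that may be technical. Values are MAS5 signals, a linear brightness per probe set on arrays that had been scaled to the same mean. A log2 fold change is a difference in log2(signal + 16), and its error is a standard error from the limma fit over 11106 genes. Genes were called at a Benjamini-Hochberg adjusted p under 0.05.

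Cytokine receptors of these families carry no kinase of their own. Ligand binding brings receptor chains together, and the JAK kinases bound to their tails phosphorylate the chains and the STAT transcription factors. IL-4 and IL-21 both use the common gamma chain, encoded by Il2rg, beside a private chain, and in B cells they act on survival, class switching and differentiation. IL-10 receptor alpha pairs with IL-10 receptor beta, IFNGR1 with IFNGR2, and IFNAR1 with IFNAR2 for type I interferons.

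In RefSeq gene order, Il4ra and Il21r are neighbouring protein-coding genes on chromosome 7. Ifnar2, Il10rb, Ifnar1 and Ifngr2 follow each other on chromosome 16, Ifngr1 is on chromosome 10 and Il10ra on chromosome 9. The promoter table held 7 of the 8 genes and not Il10ra. The start regions of the 4 interferon receptor genes are shown because 3 of them hold a STAT-type motif. Each line gives 260 bases of RefSeq sequence, 5′ to 3′, in assembly GRCm38.p6, from 250 bases before the transcript start to the first 10 bases of the transcript, with motif matches in capitals.
Ifngr1, chr10:19591699-19591958, plus strand: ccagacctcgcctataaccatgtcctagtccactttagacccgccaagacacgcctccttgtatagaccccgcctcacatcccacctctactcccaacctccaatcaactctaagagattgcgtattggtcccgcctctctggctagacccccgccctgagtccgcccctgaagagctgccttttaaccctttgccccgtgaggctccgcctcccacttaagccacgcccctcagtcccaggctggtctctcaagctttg
Ifngr2, chr16:91546809-91547068, plus strand: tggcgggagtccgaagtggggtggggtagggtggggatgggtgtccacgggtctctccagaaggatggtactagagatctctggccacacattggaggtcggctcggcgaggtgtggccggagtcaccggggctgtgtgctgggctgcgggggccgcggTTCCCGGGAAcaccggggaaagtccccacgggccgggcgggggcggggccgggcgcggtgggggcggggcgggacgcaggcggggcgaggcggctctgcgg
Ifnar1, chr16:91484965-91485224, plus strand: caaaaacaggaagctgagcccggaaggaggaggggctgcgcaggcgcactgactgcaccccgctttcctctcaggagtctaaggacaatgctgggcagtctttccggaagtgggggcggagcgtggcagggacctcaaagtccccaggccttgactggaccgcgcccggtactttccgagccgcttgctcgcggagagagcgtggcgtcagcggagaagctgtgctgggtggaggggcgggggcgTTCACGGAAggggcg
Ifnar2, chr16:91372533-91372792, plus strand: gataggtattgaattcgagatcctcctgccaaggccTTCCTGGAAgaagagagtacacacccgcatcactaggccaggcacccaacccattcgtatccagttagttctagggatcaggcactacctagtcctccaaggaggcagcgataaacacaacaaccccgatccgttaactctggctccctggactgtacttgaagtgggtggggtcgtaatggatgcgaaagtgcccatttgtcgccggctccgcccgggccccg
The windows searched ran from 250 bases before the start to 50 after it, on both strands. The letters TTC and GAA with 3 bases between them occurred in 8.30% of all 32851 promoters of the table. The same letters with 4 bases between them occurred in 6.95%, and the AP-1-type letters TGANTCA in 7.81%. Ifngr2 held TTCCCGGGAA, which began 91 bases before the start. Ifnar1 held TTCACGGAA, which began 5 bases before the start and ran across it, and Ifnar2 held TTCCTGGAA, which began 214 bases before it. Il4ra, Il21r, Il2rg and Ifngr1 held none of the 3 motifs in this window, and none of the 7 held TGANTCA. A match is a description of the letters, and no binding was measured.

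The arrays carried the markers of their labelled cell type. Of 12 B-cell markers 10 had a probe set, and all 10 passed the filter in these samples, with summed signals of 20854 to 52270 per array. The sum was lowest in the anti-IgD vehicle group, at 20854 to 24848, against 26812 to 52270 in the other groups. T-cell markers summed to 71.2 to 189. Macrophage and monocyte markers summed to 943 to 3308 with all groups overlapping, but their median was 3153 in the anti-IgD vehicle group. In the PBS vehicle, PBS PF-303 and anti-IgD PF-303 groups that median was 1977, 2312 and 2116. The sum of 7 marginal zone and B1 markers was 3754 to 4801 after anti-IgD with PF-303 and 2715 to 3682 in the other groups. Its genes went both ways, since with PF-303 the mean of Dtx1 was 1947 after anti-IgD and 1259 after PBS, while that of Cd1d1 was 509 and 1011. S1pr3 was high after anti-IgD with vehicle too, at 1371 against 1342 with PF-303. The sum of 7 stromal and endothelial markers, most of it Pecam1 and Vcam1, was 176 to 280 in the anti-IgD vehicle group and 389 to 499 in the PBS vehicle group. The defining stromal genes Col1a1, Col3a1 and Pdgfrb passed the filter on no array. The spike-in signal was over 2 times the median array on 6 arrays, PBS vehicle replicates 3 and 4, PBS PF-303 replicates 3 and 4, and anti-IgD PF-303 replicates 1 and 3, and on none of the anti-IgD vehicle arrays. The part of these features in the changes described below was not tested. In bulk RNA, fewer cells of a type and less RNA per cell cannot be told apart.

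In vehicle-treated mice, anti-IgD lowered Il10ra, Ifngr2, Ifngr1 and Il4ra and raised Il21r and Ifnar2, while Ifnar1 did not pass the test. Thus 4 of the 7 genes were lower and 2 higher, where 30.6% and 17.4% of all genes tested were lower and higher. The median log2 fold change was -0.37 over the 7 genes and -0.13 over all genes. After all arrays were shifted to one median, the median over all genes was 0.04. The split over all genes then changed from 1928 higher and 3394 lower to 2778 higher and 2178 lower, and 5 of the 7 receptor genes were called, Il4ra no longer among them. With the row letter of the sample codes as a block in the fit, 2 were called, Il10ra and Ifngr1, both lower. Of all 11106 genes, 1448 were higher and 2374 lower in that fit.

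With PF-303 in anti-IgD-treated mice, Il10ra, Ifngr2 and Ifnar1 were higher than with vehicle, and Il21r was lower. The counts of 3 higher and 1 lower stand beside 19.8% and 10.4% of all genes. The median was 0.28 over the 7 genes and 0.08 over all genes. The split over all genes moved from 2202 higher and 1150 lower to 1281 higher and 1694 lower after the shift to one median, where the receptor counts were again 3 and 1. With the row letter as a block, Il10ra was the 1 receptor gene called, where 1069 of all 11106 genes were higher and 656 lower. This comparison and the former share the anti-IgD vehicle arrays.

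In mice that received PBS, PF-303 changed none of the 7 by the limma test, where 0.0720% of all genes were higher and 0.675% lower. The lowest unadjusted p-value among them was that of Ifnar2, 0.013 (adjusted p = 0.29), and no other was under 0.05. In PF-303-treated mice, anti-IgD lowered Il10ra and Ifngr1 and raised none of the 7, where 19.1% of all genes were lower and 14.7% higher. The difference between the responses with and without PF-303 passed for Il10ra alone, where 6.66% of all genes had a higher and 3.12% a lower value with PF-303.

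**Figure D1:**
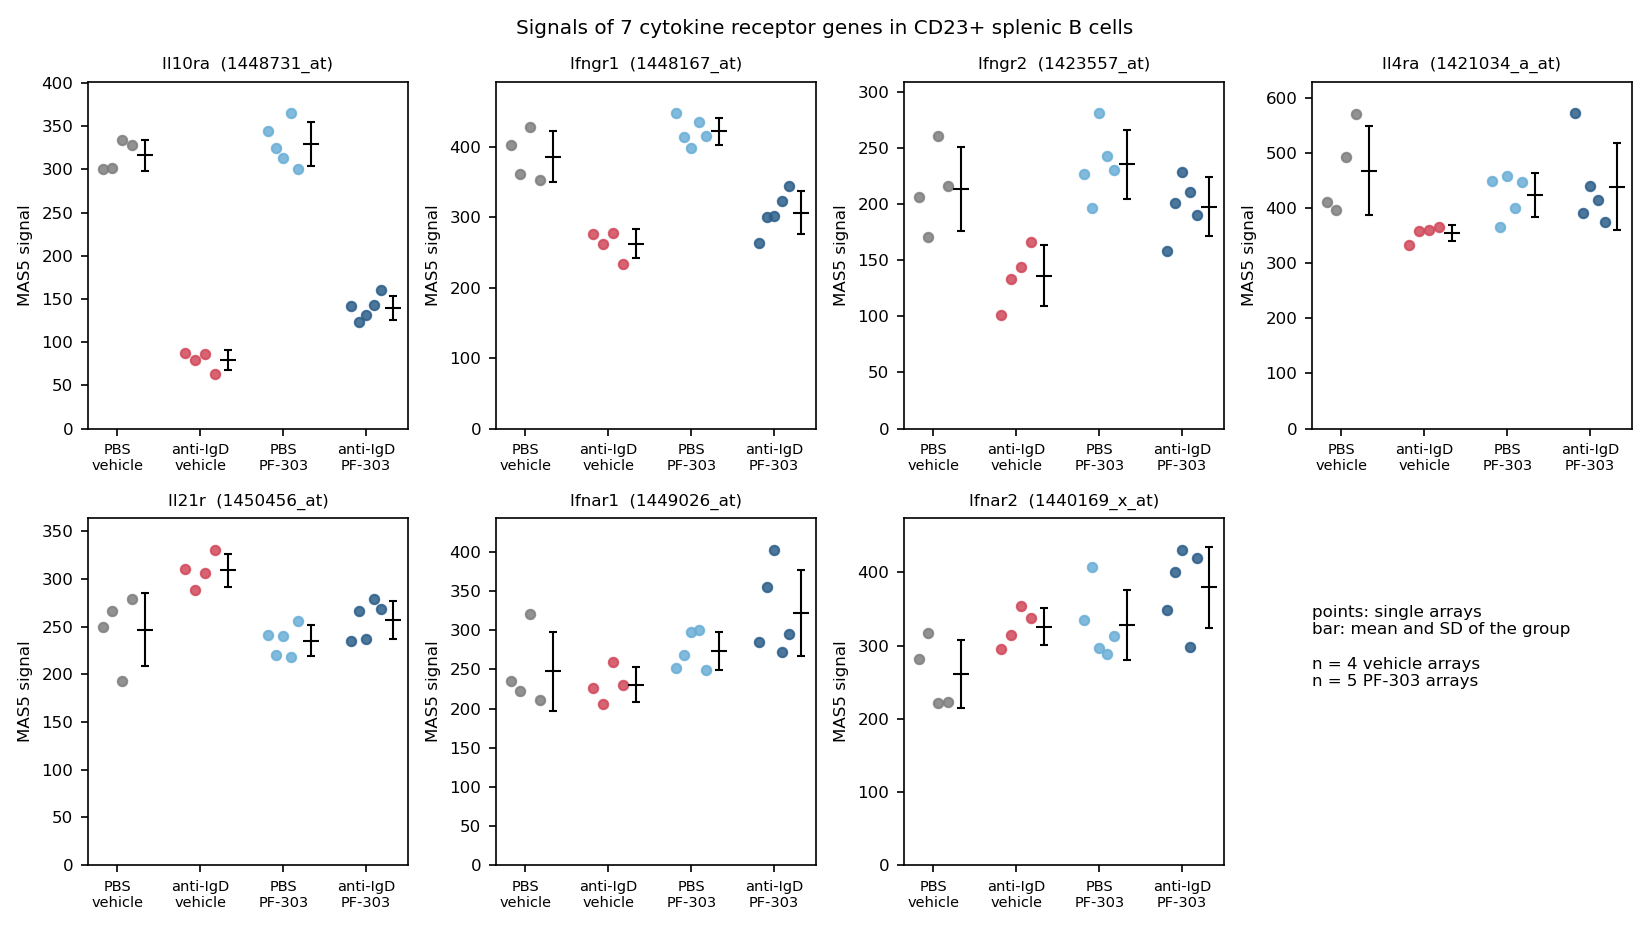
MAS5 signal (linear axis from 0) of the probe set with the highest mean for each of 7 receptor genes, in 4 groups. Points are arrays, and bars are the mean and SD of 4 or 5 arrays. The Il10ra signals after anti-IgD with vehicle, 63.5 to 87.6, lie below those with PF-303, 123 to 160, and both lie below all PBS arrays.

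Il10ra, the ligand-binding chain of the IL-10 receptor, changed most among the 7 genes. Its signals at 1448731_at were 301, 302, 334 and 328 after PBS with vehicle and 344, 325, 313, 365 and 301 after PBS with PF-303. After anti-IgD they were 87.6, 79.6, 86.6 and 63.5 with vehicle, and 142, 123, 131, 143 and 160 with PF-303. The PBS groups overlapped, and the anti-IgD groups were separate from PBS and from each other. Il10ra fell by 1.81 ± 0.10 on the log2 scale with vehicle (limma adjusted p = 1.6e-12) and by 1.15 ± 0.08 with PF-303 (adjusted p = 5.9e-10). After anti-IgD it was higher by 0.71 ± 0.09 with PF-303 than with vehicle (adjusted p = 3.6e-06). The fall was thus smaller by 0.66 with PF-303 (standard error 0.13, 95% interval 0.39 to 0.92, adjusted p = 0.0023). PF-303 in PBS-treated mice gave 0.06 (95% interval -0.13 to 0.24, adjusted p = 0.87).

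The remaining Il10ra probe sets were weak. The signals of 1437808_x_at ran from 1.21 to 42.4 and gave no call, with -0.37 ± 0.27 for anti-IgD in vehicle-treated mice (limma adjusted p = 0.29). The third probe set, 1456173_at, had signals of 0.285 to 11.5 and did not pass the filter. The mean of the Il10ra probe sets that passed the filter, 1448731_at and 1437808_x_at, gave a change of -1.09 with anti-IgD after vehicle. With that mean the difference between the responses was 0.33 (limma adjusted p = 0.33), which ended its call. Among arrays with row letter C, 1 array of each vehicle group differed by -2.0 in Il10ra, and 2 arrays with PF-303 exceeded the anti-IgD vehicle array by 1.07.

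Il10rb, the beta chain that the IL-10 receptor shares with other receptors of its family, was measured on all 18 arrays. Its signal was 809 ± 33 (SD, n = 4) after PBS with vehicle, 746 ± 22 (n = 4) after anti-IgD with vehicle, 884 ± 39 (n = 5) after PBS with PF-303, and 1026 ± 64 (n = 5) after anti-IgD with PF-303. The change with anti-IgD in vehicle-treated mice, -0.12 ± 0.07, did not pass the limma test (adjusted p = 0.18), though it did after quantile normalization (-0.18, adjusted p = 0.023). After the shift to one median this change had the opposite sign and no call (0.05, adjusted p = 0.62). Il10rb was 0.45 ± 0.07 higher with PF-303 after anti-IgD (adjusted p = 1.8e-05), and in PF-303-treated mice anti-IgD raised it by 0.21 ± 0.06 (adjusted p = 0.011). The row block left the first of these calls (0.43, adjusted p = 0.0062) and ended the second (adjusted p = 0.11). The responses of Il10rb with and without PF-303 differed, by 0.33 ± 0.09 (limma adjusted p = 0.028), a call that ended after the shift to one median (0.20, adjusted p = 0.22) and with the row block (0.30, adjusted p = 0.25). The signal of Il10, the ligand, lay between 5.94 and 32.0 and passed the filter in 4 arrays, with no call in any comparison.

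The IFN-gamma receptor chains both fell with anti-IgD in vehicle-treated mice. Ifngr1, the ligand-binding chain, had signals of 404, 361, 429 and 353 after PBS with vehicle, and 276, 262, 278 and 234 after anti-IgD with vehicle. With PF-303 they were 448, 414, 399, 436 and 415 after PBS and 263, 300, 303, 324 and 345 after anti-IgD. All anti-IgD arrays lay below all PBS arrays, and the anti-IgD groups overlapped. Ifngr1 fell by 0.53 ± 0.09 with vehicle (limma adjusted p = 2.3e-05) and by 0.45 ± 0.08 with PF-303 (adjusted p = 8.4e-05). The difference between the falls was 0.08, with a 95% interval of -0.15 to 0.32 (adjusted p = 0.71). After anti-IgD, the value with PF-303 minus that with vehicle was 0.21 ± 0.08 (adjusted p = 0.055). That comparison passed without anti-IgD PF-303 replicate 1 (0.26, adjusted p = 0.016) and without the 6 high spike-in arrays (0.28, adjusted p = 0.012). It also passed with array weights (0.25, adjusted p = 0.011), with spike-in signal as a covariate (0.25, adjusted p = 0.033) and in some further settings. No call was made in 8 of 13 other settings and in 15 of 18 fits without 1 array. Over all of these its adjusted p ran from 0.011 to 0.41.

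Ifngr2, the signalling partner chain, had signals of 206, 171, 261 and 216 after PBS with vehicle and 101, 134, 144 and 166 after anti-IgD with vehicle at 1423557_at. With PF-303 they were 227, 197, 281, 243 and 230 after PBS and 158, 201, 229, 211 and 190 after anti-IgD. The vehicle groups did not overlap, although their nearest arrays were 166 and 171, and the PF-303 groups overlapped. Ifngr2 fell by 0.60 ± 0.14 with vehicle (limma adjusted p = 0.00097) and was 0.50 ± 0.13 higher with PF-303 after anti-IgD (adjusted p = 0.0052). With PF-303 the change with anti-IgD was -0.23, with a 95% interval of -0.49 to 0.02 (adjusted p = 0.15). The difference between the responses was 0.36, with an interval of -0.02 to 0.74 (adjusted p = 0.23), so a different response with PF-303 was not shown.

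Both Ifngr2 calls ended with the row letter as a block, at -0.40 (adjusted p = 0.086) for anti-IgD and 0.30 (adjusted p = 0.25) for PF-303. Among arrays of row letter C the differences in Ifngr2 were -0.04 and 0.06, from 1 and 2 arrays per group. A further probe set, 1423558_at, gave -0.32 ± 0.15 for anti-IgD (limma adjusted p = 0.10) and 0.25 ± 0.14 for PF-303 (adjusted p = 0.20), the same signs with no call.

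Neither type I interferon receptor chain was called lower with anti-IgD. Ifnar1 had signals of 235, 222, 321 and 211 after PBS with vehicle and 226, 205, 260 and 230 after anti-IgD with vehicle at 1449026_at. With PF-303 they were 252, 268, 297, 301 and 250 after PBS and 285, 356, 403, 272 and 295 after anti-IgD. The vehicle groups overlapped, and after anti-IgD every PF-303 array lay above every vehicle array. The change with anti-IgD in vehicle-treated mice was -0.08, with a 95% interval of -0.34 to 0.17 (limma adjusted p = 0.61). Ifnar1 was 0.45 ± 0.12 higher with PF-303 after anti-IgD (adjusted p = 0.0059). The row block ended this call (0.36, adjusted p = 0.17), and row letter C arrays differed by 0.32. The probe set 1442222_at gave 0.25 ± 0.12 for the same comparison (adjusted p = 0.13).

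Ifnar2, the high-affinity chain for type I interferons, gave different results at its 3 probe sets. At 1440169_x_at the signals were 282, 317, 221 and 223 after PBS with vehicle and 296, 315, 353 and 338 after anti-IgD with vehicle. With PF-303 they were 334, 408, 297, 289 and 313 after PBS and 349, 400, 431, 298 and 420 after anti-IgD. The groups overlapped in each of these pairs. This probe set was 0.32 ± 0.13 higher with anti-IgD in vehicle-treated mice (limma adjusted p = 0.042), and its adjusted p was 0.051 in the fit of all 24951 probe sets.

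The Ifnar2 call was lost without anti-IgD vehicle replicate 2, 4 or 5 and without PBS vehicle replicate 3 or 4, with values of 0.25 to 0.33. Without the 6 high spike-in arrays the value was 0.11 (limma adjusted p = 0.51), and with the row block 0.27 (adjusted p = 0.17). The call stayed in 6 of 13 other settings and in 13 of 18 fits without 1 array. At 1427691_a_at the vehicle comparison gave 0.04 ± 0.13 (adjusted p = 0.83), while in PF-303-treated mice anti-IgD raised the signal by 0.42 ± 0.11 (adjusted p = 0.0071), from 138 ± 17 (SD, n = 5) to 192 ± 29 (n = 5) with no overlap. At 1451462_a_at no comparison passed, and the values were 0.21 with vehicle and 0.11 with PF-303 for anti-IgD.

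Along chromosome 16, the neighbours Il10rb, Ifnar1 and Ifngr2 were thus each called higher with PF-303 after anti-IgD, by 0.45, 0.45 and 0.50. Of all genes, 19.8% were higher in that comparison. With the row block the Il10rb call stayed, while those of Ifnar1 and Ifngr2 ended (limma adjusted p = 0.17 and 0.25). The second probe sets of Ifnar1 and Ifngr2 gave no call. The neighbouring Ifnar2 was not called, at 0.20 (limma adjusted p = 0.21), although it passed with spike-in signal as a covariate (0.33, adjusted p = 0.022). At 1427691_a_at the Ifnar2 value was 0.32 (adjusted p = 0.055), with 142 to 156 on the vehicle arrays and 170 to 239 on the PF-303 arrays. Among these 4 genes, anti-IgD in vehicle-treated mice lowered Ifngr2, raised Ifnar2 and gave no call for the other two.

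**Figure D2:**
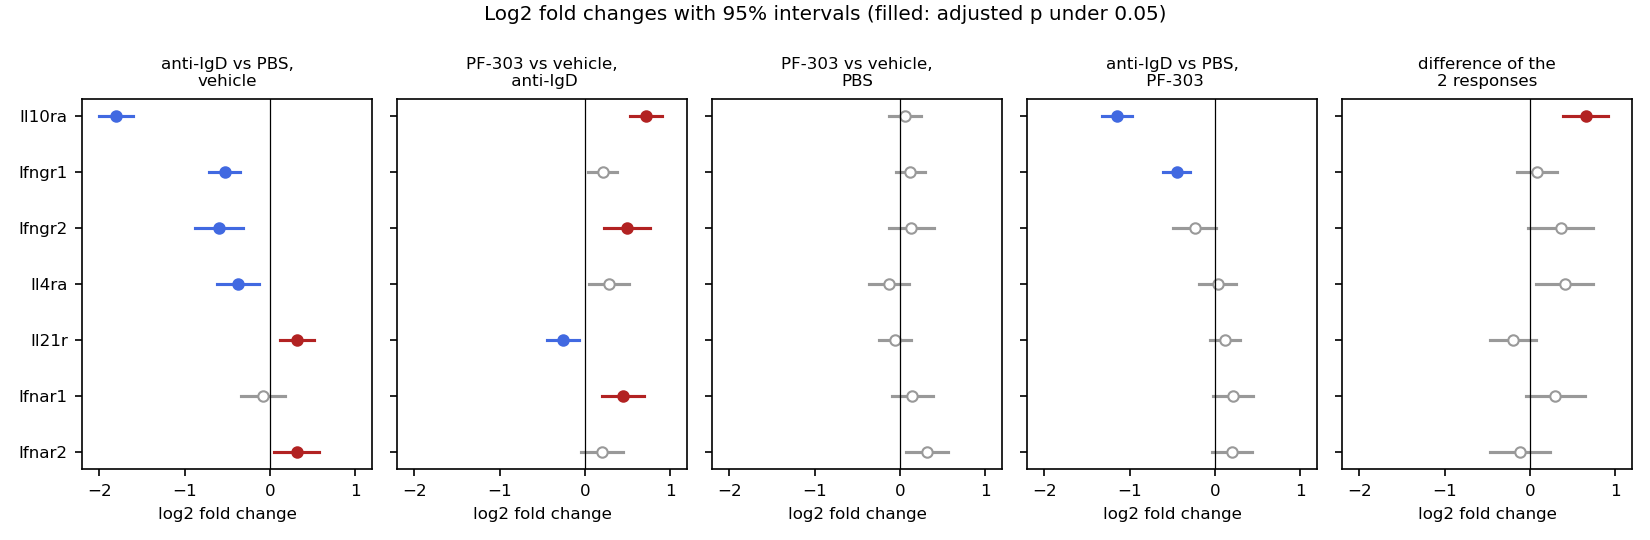
Log2 fold changes of 7 receptor genes in 5 comparisons, with 95% intervals from limma over 18 arrays. Filled points passed at an adjusted p under 0.05, red for higher and blue for lower. Il10ra lies at -1.81, 0.71, 0.06, -1.15 and 0.66 from left to right, and no gene is filled for PF-303 in PBS-treated mice.

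The IL-4 and IL-21 receptor genes changed in opposite directions with anti-IgD in vehicle-treated mice. Il4ra, the private IL-4 chain that also serves IL-13, had signals of 411, 397, 493 and 571 after PBS with vehicle and 333, 358, 360 and 366 after anti-IgD with vehicle at 1421034_a_at. With PF-303 they were 450, 366, 459, 400 and 447 after PBS and 573, 392, 439, 415 and 375 after anti-IgD. The anti-IgD vehicle arrays lay below all arrays of PBS with vehicle and of anti-IgD with PF-303. Il4ra fell by 0.37 ± 0.12 with vehicle (limma adjusted p = 0.012). After anti-IgD the PF-303 value minus the vehicle value was 0.28 ± 0.11 (adjusted p = 0.061), and in PF-303-treated mice anti-IgD gave 0.04, with a 95% interval of -0.18 to 0.25 (adjusted p = 0.83).

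The fall of Il4ra with vehicle ended as a call without PBS vehicle replicate 4 (-0.27, limma adjusted p = 0.059), without the 6 high spike-in arrays (-0.18, adjusted p = 0.11), after the shift to one median (-0.21, adjusted p = 0.16) and with the row block (-0.39, adjusted p = 0.11). The comparison of PF-303 with vehicle after anti-IgD passed for Il4ra without PBS vehicle replicate 4 (adjusted p = 0.039) or anti-IgD PF-303 replicate 5 (0.33, adjusted p = 0.037). The probe set 1423996_a_at had group means of 83.7 ± 22.0 (SD, n = 4) and 56.1 ± 7.6 (n = 4) for PBS and anti-IgD with vehicle, and 58.8 ± 11.8 (n = 5) and 78.7 ± 13.0 (n = 5) with PF-303. Its responses differed by 0.79 ± 0.21 (adjusted p = 0.025). At the main probe set this difference was 0.41 ± 0.16 (adjusted p = 0.11). The weak probe set 1447858_x_at, with signals of 6.78 to 50.8, had the opposite sign (-0.66 ± 0.27, adjusted p = 0.16) and was not called in any comparison.

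Il21r, the private chain of the IL-21 receptor, had signals of 250, 267, 193 and 279 after PBS with vehicle and 311, 289, 307 and 331 after anti-IgD with vehicle. With PF-303 they were 242, 221, 240, 218 and 257 after PBS and 235, 266, 237, 280 and 268 after anti-IgD. The anti-IgD vehicle arrays lay above every other array at this single probe set, 1450456_at. Il21r rose by 0.32 ± 0.10 with vehicle (limma adjusted p = 0.0087), a call that the row block ended (0.28, adjusted p = 0.15). After anti-IgD the PF-303 value minus the vehicle value was -0.25 ± 0.09 (adjusted p = 0.038). In PF-303-treated mice anti-IgD gave 0.12, with a 95% interval of -0.06 to 0.30 (adjusted p = 0.32), and the difference between the responses was -0.20 (adjusted p = 0.37).

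The lower Il21r signal with PF-303 lost its call without anti-IgD PF-303 replicate 1 or 3 or anti-IgD vehicle replicate 1, 4 or 5, with values of -0.26 to -0.22. Leaving out the 6 high spike-in arrays also ended it (-0.18, limma adjusted p = 0.080), as did the row block (-0.23, adjusted p = 0.32). The call stayed in 7 of 13 other settings and in 13 of 18 fits without 1 array.

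In the fit of all 24951 probe sets, anti-IgD after vehicle raised 16.8% and lowered 23.4%, and anti-IgD after PF-303 raised 11.6% and lowered 15.2%. With PF-303, 13.1% were higher and 12.9% lower after anti-IgD, and 0.0401% and 0.525% after PBS. The responses differed upward for 3.62% and downward for 2.81%. Of the 14 receptor probe sets that passed the filter, 7 were not the one with the highest mean of its gene, and 2 of these 7 were called in any comparison. They were 1427691_a_at of Ifnar2 and 1423996_a_at of Il4ra, which also fell after vehicle, at -0.45 ± 0.15 (limma adjusted p = 0.024).

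**Figure D3:**
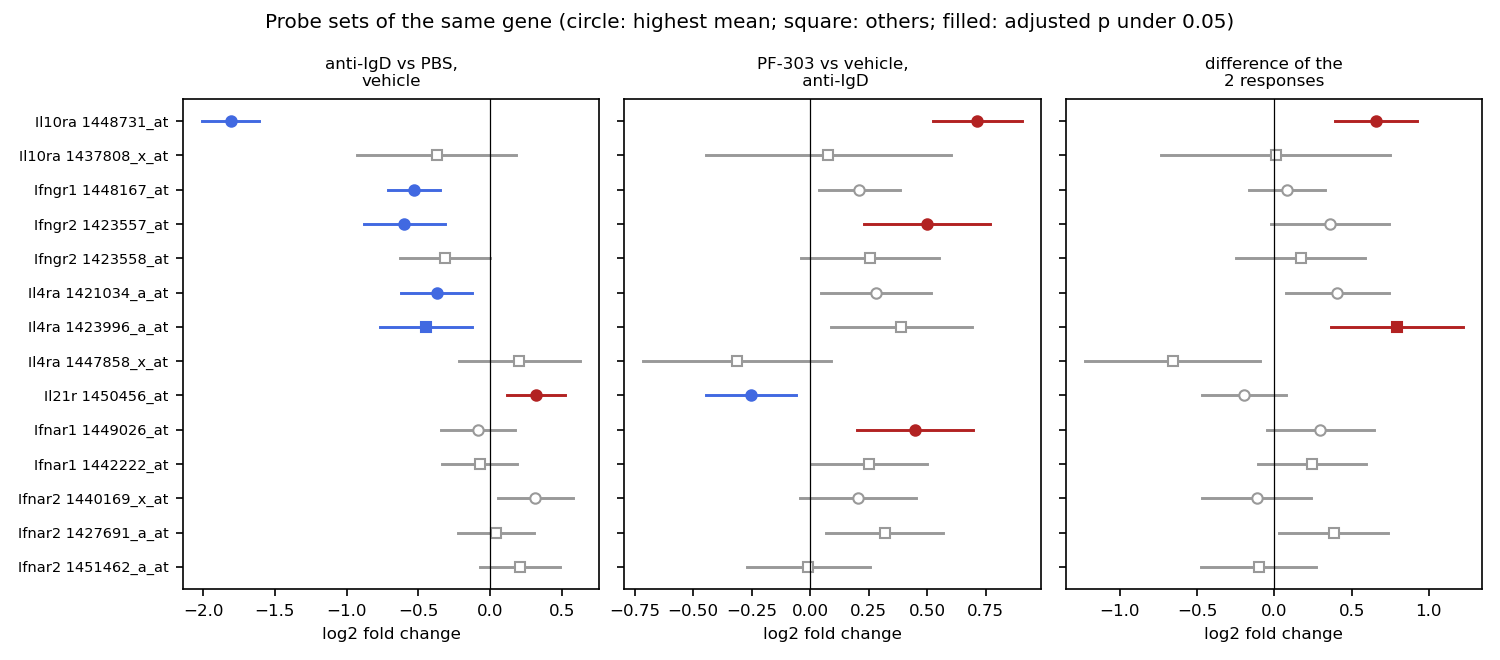
Log2 fold changes with 95% intervals for the 14 receptor probe sets that passed the filter, in 3 comparisons, from limma over 24951 probe sets. Circles mark the probe set with the highest mean of each gene, squares the others, and filled symbols an adjusted p under 0.05. For Il4ra, 1423996_a_at lies at 0.79 and 1447858_x_at at -0.66 in the right panel.

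Il13ra1, which joins Il4ra in the receptor for IL-13, had signals of 5.70 to 19.8 and did not pass the filter. Il2rb and Il15ra were called in no comparison. Il2ra, the alpha chain of the IL-2 receptor, exceeded the filter level of 15.2 on 5 arrays, with 8.13 ± 3.4 (SD, n = 4) after PBS and 19.99 ± 5.4 (n = 4) after anti-IgD with vehicle. Il9r exceeded it on 8 arrays, with 17.6 ± 1.6 (n = 4) and 3.07 ± 0.89 (n = 4) in the same groups. Since both passed the filter through the groups where they were high, no fold change is given for them. Il7r, with signals of 20.2 to 58.6, was higher by 0.41 ± 0.15 with anti-IgD in PF-303-treated mice (limma adjusted p = 0.039).

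The list of other cytokine receptor chains held 45 genes, of which 40 had a probe set and 27 passed the filter. Among the 27 were Il2ra, Il9r and Il1r2, which passed through the groups where they were high. The counts and medians of this list therefore depend in part on the filter. With anti-IgD in vehicle-treated mice 4 rose and 6 fell, with a median of -0.08, where 17.4% and 30.6% of all genes rose and fell with a median of -0.13. Il27ra, the IL-27 receptor alpha chain, fell by 0.93 ± 0.11 (limma adjusted p = 4.0e-07), and Il6ra, the IL-6 binding chain, by 0.81 ± 0.14 (adjusted p = 6.6e-05). Il6st, which encodes the shared chain gp130, rose by 0.68 ± 0.17 (adjusted p = 0.0021), so the IL-6 receptor chains moved in opposite directions. Il1r2, a decoy receptor for IL-1, had signals of 14.1 ± 4.8 (SD, n = 4) after PBS and 38.9 ± 5.8 (n = 4) after anti-IgD, and 9.76 ± 3.1 (n = 5) and 22.5 ± 5.1 (n = 5) with PF-303. Its PBS means lay under the filter level, so it too passed through the groups where it was high. Csf2rb, the common beta chain, fell by 0.61 ± 0.17 (adjusted p = 0.0064).

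With PF-303 after anti-IgD, 6 of these 27 chains were higher and 3 lower, with a median of 0.19, where 19.8% and 10.4% of all genes were, with a median of 0.08. Il6ra was higher by 0.62 ± 0.14 (limma adjusted p = 0.0014), Csf2rb by 0.50 ± 0.17 (adjusted p = 0.025) and Il27ra by 0.43 ± 0.10 (adjusted p = 0.0029). Il6st was lower (-0.51, adjusted p = 0.019). After the shift to one median, 6 of these chains rose and 6 fell with anti-IgD in vehicle-treated mice, with a median of 0.09. There 2778 of all 11106 genes rose and 2178 fell. With PF-303 after anti-IgD, 4 chains were then higher and 3 lower, where 1281 and 1694 of all genes were. With the row block, 1 rose and 6 fell with anti-IgD, 3 were higher and 0 lower with PF-303, and Il6st and Csf2rb passed in neither comparison. Of all 11106 genes, 1448 rose and 2374 fell with anti-IgD in that fit, and 1069 were higher and 656 lower with PF-303.

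**Figure D4:**
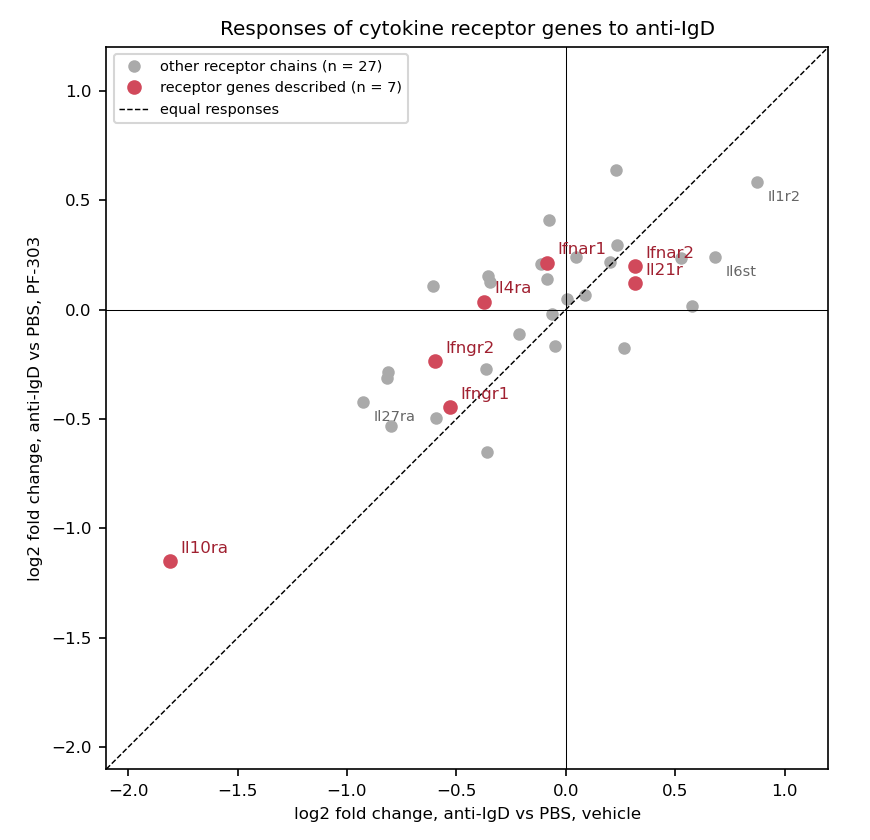
Log2 fold change with anti-IgD after vehicle (horizontal) against that in PF-303-treated mice (vertical), for the 7 receptor genes described in red and 27 other receptor chains in grey. The dashed line marks equal responses. The grey points include Il2ra, Il9r and Il1r2, which passed the filter through the groups where they were high. Il10ra lies farthest to the lower left, at -1.81 and -1.15, above the dashed line.

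Kinases that these receptors use were lower after anti-IgD in part. Jak2, which serves IFNGR2, fell in vehicle-treated mice from 551 ± 35 (SD, n = 4) to 312 ± 34 (n = 4), by 0.79 ± 0.08 (limma adjusted p = 6.8e-08), and was 0.36 ± 0.08 higher with PF-303 after anti-IgD (adjusted p = 0.0013). Tyk2, which serves IFNAR1 and IL-10 receptor beta, fell by 0.72 ± 0.11 (adjusted p = 1.7e-05). Jak1, which serves Il4ra, Il21r, Il10ra, Ifngr1 and Ifnar2 products, fell by 0.44 ± 0.16 (adjusted p = 0.029), to 1380.5 ± 90 (SD, n = 4) from 1937 ± 545 (n = 4). That call ended when the 6 high spike-in arrays were left out (-0.09, adjusted p = 0.40), after the shift to one median (-0.28, adjusted p = 0.17) and with the row block (-0.40, adjusted p = 0.19). Jak3, the kinase of the common gamma chain, was called in no comparison.

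Of 28 JAK and STAT signalling genes tested, 10 fell and 5 rose with anti-IgD in vehicle-treated mice, with a median of -0.22, where 30.6% and 17.4% of all genes fell and rose. After the shift to one median the counts were 7 and 7, where 2178 of all 11106 genes fell and 2778 rose. Stat2, a transcription factor of type I interferon signalling, fell by 1.29 ± 0.16 (limma adjusted p = 7.4e-07). Stat5b fell by 0.58 ± 0.11 (adjusted p = 0.00016), and Stat4 rose by 0.27 ± 0.10 (adjusted p = 0.029). With PF-303 after anti-IgD, 8 were higher and 3 lower, where 19.8% and 10.4% of all genes were. After the shift to one median they were 5 and 5, where 1281 of all genes were higher and 1694 lower. Stat5b was higher by 0.53 ± 0.10 (adjusted p = 0.00052) and Stat4 lower, at -0.44 (adjusted p = 0.0011). The 2 responses differed for Stat5b by 0.53 ± 0.15 (adjusted p = 0.026) and for Stat4 by -0.44 (adjusted p = 0.038), and with the row block neither difference passed. The Stat5b difference also ended after the shift to one median (0.41, adjusted p = 0.083), after quantile normalization (0.44, adjusted p = 0.082) and without the 6 high spike-in arrays (0.23, adjusted p = 0.30).

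Of 35 interferon-stimulated genes tested, 21 fell and 0 rose with anti-IgD in vehicle-treated mice, with a median of -0.51, where 30.6% and 17.4% of all genes fell and rose. With PF-303, 22 fell and 0 rose, with a median of -0.44, where 19.1% and 14.7% of all genes fell and rose. The counts were 18 to 20 lower and 0 higher in vehicle-treated mice after the shift to one median and after quantile normalization, and 16 lower and 0 higher with the row block. In the same fits, 2178, 2614 and 2374 of all 11106 genes were lower, and 2778, 2323 and 1448 higher. Gbp3, an interferon-induced GTPase, fell from 525 ± 44 (SD, n = 4) to 158 ± 16 (n = 4), by 1.64 ± 0.09 (limma adjusted p = 4.3e-12), and Cmpk2 by 1.32 ± 0.11 (adjusted p = 1.6e-09). Psmb9 and Psmb8, subunits of the immunoproteasome, fell by 0.79 ± 0.09 (adjusted p = 1.7e-07) and 0.63 ± 0.09 (adjusted p = 3.9e-06).

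With PF-303 after anti-IgD, 13 of the 35 were higher than with vehicle and 0 lower, where 19.8% and 10.4% of all genes were. Psmb8 was higher by 0.60 ± 0.08 (limma adjusted p = 1.1e-05), Cmpk2 by 0.60 ± 0.10 (adjusted p = 0.00012) and Gbp3 by 0.43 ± 0.09 (adjusted p = 0.00063). The count was 6 after the shift to one median and 5 with the row block, with 0 lower in both. In these fits, 1281 and 1069 of all 11106 genes were higher, and 1694 and 656 lower. The 2 responses to anti-IgD differed upward for 3 of the 35 and downward for 0, where 6.66% and 3.12% of all genes did. In PBS-treated mice PF-303 changed none of the 35 by the limma test, with a median of 0.11 (all genes 0.01). After the shift to one median, the median for anti-IgD was -0.34 with vehicle and -0.39 with PF-303. The ligand Ifnb1 and the interferon alpha genes with a probe set did not pass the filter, nor did Ifng, whose signals were 0.437 to 19.6. Of 17 ligand genes with a probe set, 2 passed the filter, Il10 and Il15.

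Of 10 target genes of IL-4, IL-10 and IL-21 tested, 1 rose and 3 fell with anti-IgD after vehicle, where 17.4% and 30.6% of all genes rose and fell. With PF-303 after anti-IgD 1 was higher, where 19.8% of all genes were. Fcer2a, which encodes CD23 and is induced by IL-4, fell by 0.51 ± 0.10 (limma adjusted p = 0.00020) and was 0.31 ± 0.10 higher with PF-303 (adjusted p = 0.018). The latter call ended after the shift to one median (0.20, adjusted p = 0.15) and with the row block (0.23, adjusted p = 0.31). It is also the protein by which the cells were selected. Prdm1, a plasma cell regulator that IL-21 can induce, rose by 1.07 ± 0.13 with vehicle (adjusted p = 3.1e-07) and by 0.96 ± 0.11 with PF-303 (adjusted p = 5.5e-07). Bcl6, the germinal centre repressor, fell by 0.57 ± 0.16 (adjusted p = 0.0063; after the shift to one median -0.40, adjusted p = 0.055), and Bcl3 fell by 1.28 ± 0.14 (adjusted p = 8.1e-08).

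**Figure D5:**
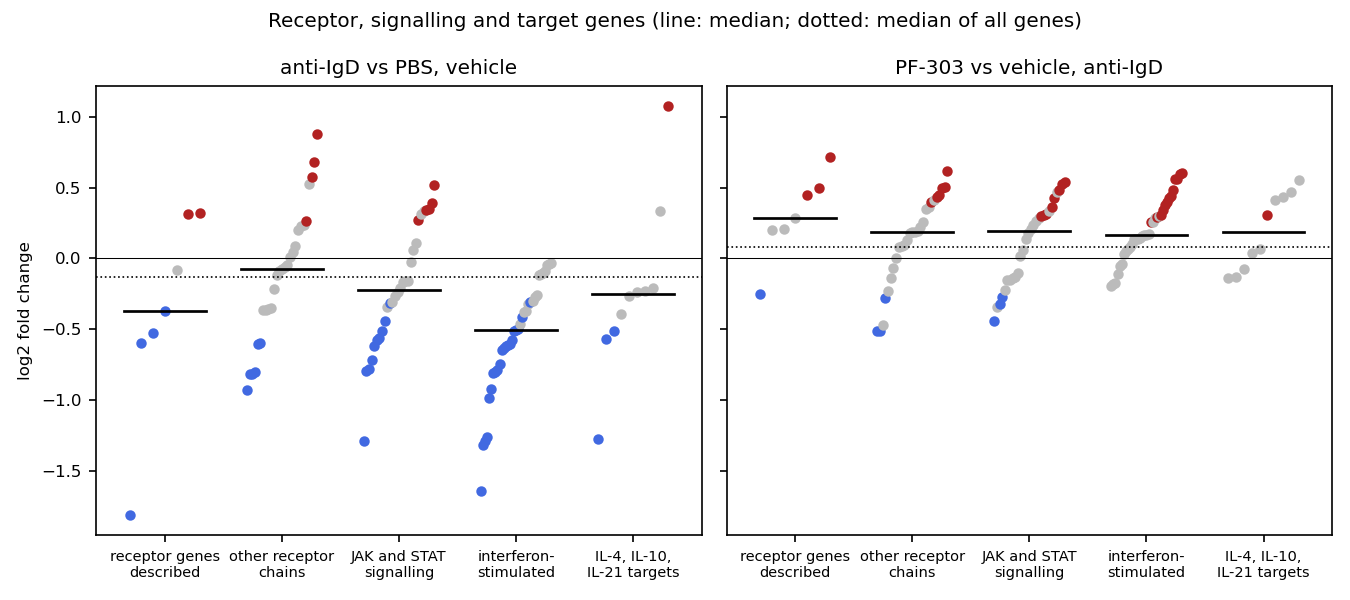
Log2 fold changes for anti-IgD against PBS after vehicle (left) and for PF-303 against vehicle after anti-IgD (right) for 7 receptor genes and 4 gene lists. Each point is a gene, red or blue where called higher or lower, black lines are medians and the dotted line is the median of all 11106 genes. All called interferon-stimulated genes are lower on the left, 21 of 35, and higher on the right, 13 of 35.

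For each receptor gene, the genes whose log2 signal followed it most closely over the 18 arrays were found by Pearson correlation against 11105 other genes. These correlations are descriptions, since arrays of a group share their treatment. For Il10ra they were Lrrk2, Spata13 and Ssh1, with r of 0.991, 0.991 and 0.986. For Ifngr1 they were Maf1, Mindy1 and Hsd17b11, with r of 0.966, 0.961 and 0.957. For Ifngr2 they were Slc25a12, Washc3 and Bcap31, with r of 0.922, 0.920 and 0.917. Il4ra was nearest to Eral1, Cd79a, the B-cell receptor component, and Man2b2, at 0.933, 0.927 and 0.914. Il21r was nearest to Dcaf1, Bdp1 and Alg3, at 0.887, 0.873 and 0.870. Ifnar1 was nearest to Trappc2l, Pih1d1 and Dstn, at 0.913, 0.899 and 0.874, and Ifnar2 to Stx6, Rab9 and Lactb2, at 0.854, 0.843 and 0.841. The highest values belonged to Il10ra, the gene with the widest range between groups, and the lowest to Ifnar2.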

How the data were processed

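The deposited values are MAS5 intensity signals per probe set on a linear scale, made by the authors with MAS5 per the submitters' processing notes; its version and settings are not given in the sources used here. Over the 18 arrays the 2%-trimmed mean was 99.96 to 99.97, so arrays had been scaled to one level and a change is relative to the rest of the array. Symbols came from the platform annotation, and 204 probe sets kept a symbol without a match in the RefSeq table of GRCm38.p6.

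Signals were taken as log2(signal + 16), which understates changes of weak genes. Probe sets had to exceed the overall median of 15.2 in 4 or more arrays, and the probe set with the highest mean stood for a gene, which left 11106 genes. A second fit used all 24951 passing probe sets. Models with 1 mean per group over all 18 arrays were fitted in R 4.3.3 with limma 3.58.1 (lmFit, eBayes with trend; statmod 1.5.0), two-sided, with 5 contrasts and Benjamini-Hochberg adjustment over all genes, or all probe sets, within a contrast. The script was tested on simulated data. The number of arrays limits the precision.

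The 8 receptor genes, gene lists and alternatives were chosen with earlier results of these data known. Named list genes are up to 4 called per list with the largest change with anti-IgD or with PF-303 after anti-IgD, plus the chains that pair with the 8 genes and the 4 JAK kinases. No 2 arrays held identical values. Replicate numbers recur between groups, and 7 of 24 same-numbered pairs deviated together with a correlation over 0.1 (range -0.16 to 0.22), among them the pairs of replicate 3; since not all did, the numbers were not taken to pair samples. The row letter is part of the sample codes in the labels. Alternatives covered the offset, filter, probe set choice, scaling, blocks for replicate number and row letter, spike-in signal, the trend, array weights and leaving out each array.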

Additional observations from a re-analysis of the deposited data

Results flagged for a closer look

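At 2 of the 14 receptor probe sets that passed the filter, the anti-IgD response with PF-303 differed from that with vehicle by the limma test. Both were higher, where 3.62% of all 24951 probe sets were higher and 2.81% lower. At Il10ra 1448731_at the response with PF-303 was 0.66 higher than with vehicle on the log2 scale, and at Il4ra 1423996_a_at it was 0.79 higher. The higher value at Il10ra is a smaller fall, while at Il4ra the 4 group means cross.

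In 4 of 56 groups of values 1 array stood apart by Dixon's test at the 95% level, which by chance flags about 1 in 20 groups. These were Ifngr2 1423558_at in PBS PF-303 replicate 5, with a signal of 79.2, and Il10ra 1437808_x_at in PBS vehicle replicate 3, with 42.4. The others were Il4ra 1447858_x_at in PBS PF-303 replicate 4, with 50.8, and Ifnar2 1451462_a_at in PBS vehicle replicate 4, with 133. None of these 4 probe sets was the one used for its gene.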

How the results depend on the processing

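The 35 receptor values, 7 genes in 5 comparisons, were recomputed under 13 other settings and without each of 18 arrays. Of 1085 values, 1039 kept their direction where called and their side of the threshold, 32 lost a call, 14 gained one and 0 called values reversed. Among the 1039, 16 uncalled values changed sign. Of the 13 called values, 5 lost no call in any setting, the falls of Il10ra in both drug groups, its higher level with PF-303 after anti-IgD, and both falls of Ifngr1.

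With the row block, receptor genes called for anti-IgD with vehicle fell from 6 to 2, and all genes called from 5322 to 3822. For PF-303 after anti-IgD, receptor genes called fell from 4 to 1 and all genes called from 3352 to 1725. With the mean of the passing probe sets of each gene, 0 of 7 receptor genes in place of 1 had responses that differed. Across the 13 other settings, 291 to 1385 of all genes had responses that differed, against 1086 in the main fit. All genes called for PF-303 in PBS-treated mice were 83, against 42 with the row block, 46 without the 6 high spike-in arrays, 155 with spike-in signal as a covariate and 196 with array weights. Leaving out 1 array gave 42 to 108, with 52 without PBS PF-303 replicate 1, 42 without PBS PF-303 replicate 4 and 49 without PBS vehicle replicate 1. All genes whose responses differed were 1086, against 291 with the row block and 715 without the 6 high spike-in arrays. Their split of 740 higher and 346 lower became 345 and 688 after the shift to one median. Only row letter C held both vehicle groups, with 1 array each. With the replicate block, calls were lost for Ifnar2 with anti-IgD in vehicle-treated mice (0.29, limma adjusted p = 0.056) and for Il21r with PF-303 after anti-IgD (-0.22, adjusted p = 0.067). That block changed no other receptor call. The cause of these changes was not tested.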
